A study of Mus musculus with 19 samples.

Results

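The 6 h and 12 h timepoints of a culture series of mouse hepatic stellate cells (HSCs) were compared, 3 samples against 3, which makes 6 of the 19 samples of the series. All 6 were chosen by their sample labels alone. HSCs were sorted by the ultraviolet fluorescence of their vitamin A from healthy, uninjured male Balb/c mice aged 23 to 24 weeks, seeded on collagen in 24-well plates and kept in DMEM with 10% fetal bovine serum, 1% penicillin-streptomycin and 1% glutamine. The medium was replaced at 3 h, before either timepoint, and not again until 24 h, so that both groups shared every agent and differed in culture time. Each sample stood for 2 technical repeats and carried an isolation date and a number (1, 2 or 3) that recurred across timepoints. Numbers 1 and 3 had one date and number 2 another, and what the number counts was not stated. The labels do not call the number an isolation. As a name only, samples of 1 number are called isolations 1, 2 and 3 below, although by date numbers 1 and 3 may be 1 isolation. The animals behind each were not given. Sorted cells on a collagen-coated plate are a model of activation with no liver around them.

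HSCs of the resting liver are pericytes that hold vitamin A as retinyl esters in lipid droplets. After injury, or on a culture plate, they lose these traits and become contractile, matrix-producing activated HSCs (aHSCs). The first hours are known for an immediate early and inflammatory response, while the mechanosensitive YAP/TEAD pathway, amino acid synthesis under the transcription factor ATF4, and ribosome production serve the later growth and spreading of cultured fibroblastic cells.

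Libraries of the 6 samples were 3′ tag libraries (QuantSeq), which read a transcript near its end. They held 3376702 to 5609553 counts at 6 h and 4286832 to 7690892 at 12 h, and 3 counts, taken as the smallest level the depth can show, equalled 0.39 to 0.888 CPM (counts scaled to a library total of 1000000). Isolation 2 stood apart at 6 h with 15189 genes detected, against 11171 to 13073 in the other 5 libraries. Even well-expressed genes dropped out of single libraries: of 6029 tested genes whose 6 samples averaged 20 CPM or more, 434 (7.2%) had no count in at least 1 sample. The summed level of 16 stellate cell markers lay at 20425 to 22213 CPM at 6 h and 5976 to 6802 CPM at 12 h, with Gfap at 0 in all 6. The marker Dcn alone had means of 11493.5 CPM at 6 h and 3576.5 CPM at 12 h, so these sums rest largely on a single gene. The 14 Kupffer and myeloid markers summed to 37.6 to 58.8 CPM and 33.7 to 50.4 CPM, with Clec4f, Marco, Timd4, Adgre1, C1qb and Tyrobp at 0 throughout. The 12 hepatocyte markers summed to 133 to 420.5 and 125 to 201 CPM, and the 12 sinusoidal endothelial markers to 276 to 1064 and 177 to 796 CPM. All 6 lymphocyte and all 4 neutrophil markers were at 0. In bulk RNA, fewer cells of a type and less RNA of a gene per cell cannot be told apart.

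More genes were called lower than higher between 6 h and 12 h. Of 10253 genes tested, 200 (1.95%) were called, that is, had an adjusted p below 0.1 by edgeR's quasi-likelihood test with Benjamini-Hochberg adjustment and a fold change above 2. Of these, 56 (0.546% of the genes tested) were higher at 12 h and 144 (1.4%) were lower, so that 72% of the calls pointed down (60.3% of the 799 by DESeq2), while the median log2 fold change of all genes was 0.04, with 5335 of the 10253 above 0. The falls with the smallest p-values included genes of adhesion molecules, extracellular proteins and stellate cell markers. The genes that rose included enzymes of serine and asparagine synthesis, the YAP/TEAD target Ankrd1, the cytokine Il11 and the matricellular protein Tnc. The 3 samples at 12 h lay outside the range of the 3 at 6 h for all 200. Complete separation on the higher and lower side occurred for 12.9% and 11.4% of all genes tested, and an unadjusted p below 0.05 for 5.91% and 7.3%. These shares, with the 0.546% called higher and 1.4% called lower, are the background for the counts of every list below.

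The calls depended on how the isolations were treated. When the isolation entered the fit as a block, 30 genes (0.293%) passed, 4 higher (0.039%) and 26 lower (0.254%), each of them among the 200. The 4 were Ankrd1, Il11, Tnc and Serpinb6b. The 6 fits that each left out 1 sample made 143, 38 and 44 calls without isolations 1, 2 and 3 at 12 h and 45, 107 and 75 without isolations 1, 2 and 3 at 6 h. Of the 56 higher genes 3 (Il11, Gdf15 and Serpinb2) and of the 144 lower genes 23 were called in all 6 of these fits. The least favourable of the 6 gave the other genes adjusted p-values of at most 0.321. Adjusted p-values below are from edgeR without the block unless the block is named.

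**Figure D1:**
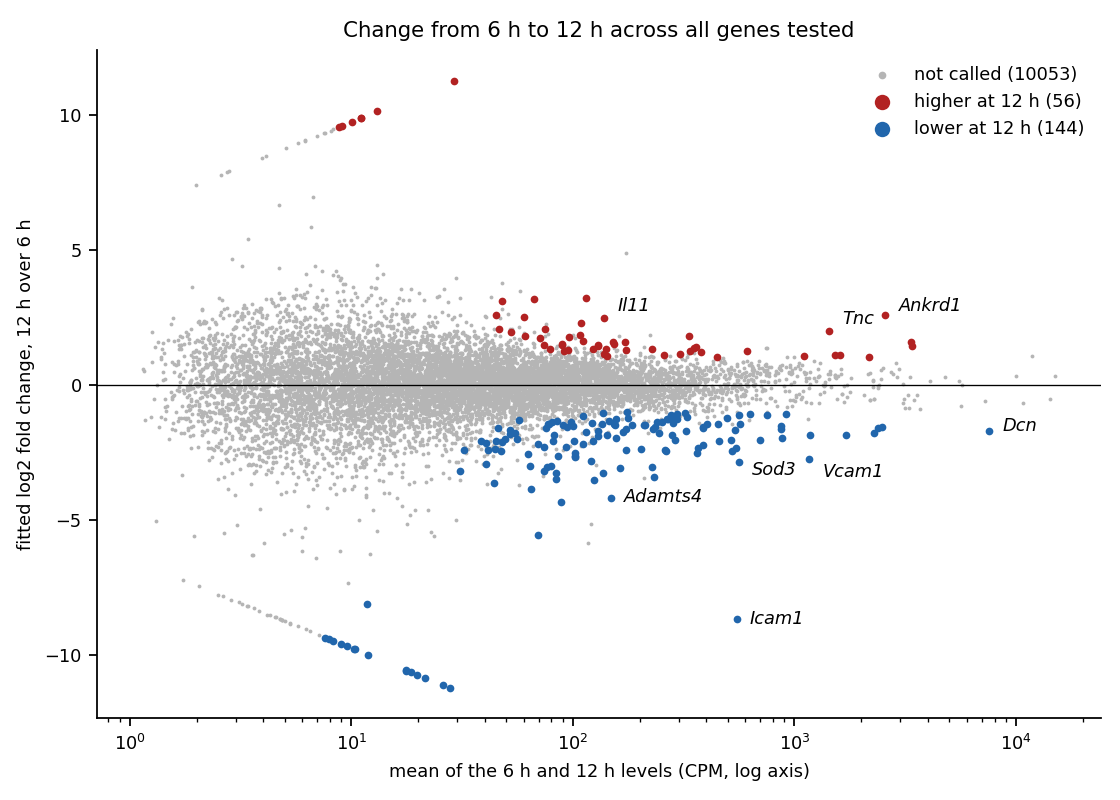
Fitted log2 fold change of 12 h over 6 h (vertical axis) against the mean of the 6 h and 12 h levels in CPM (horizontal, log axis) for the 10253 genes tested. The 56 genes called higher are red and the 144 called lower are blue, and the slanting rows at the far left of both sides are genes at 0 in all 3 samples of 1 group, whose fitted values depend on the prior count and are no measure of size.

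The steepest fall among genes with a mean above 100 CPM at 6 h was that of Icam1, the intercellular adhesion molecule that binds leukocyte integrins (chr9:21015985-21028817 in mm10). Its level was 1151, 1008 and 1118 CPM in isolations 1, 2 and 3 at 6 h and 2.8, 0 and 4.94 CPM at 12 h. The 3 samples at 6 h stood close together near their mean of 1092 CPM, and at 12 h 1 of the 3 held no count (log2 fold change -8.69, SE 0.91, adjusted p = 0.0154). With the block the adjusted p was 0.0999.

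Vcam1, the adhesion molecule for lymphocytes and monocytes at chr3:116109949-116129688, went from 2187, 2117 and 1791 CPM to 256, 301 and 364 CPM. Every 12 h sample was far below every 6 h sample (log2 fold change -2.75, SE 0.21, adjusted p = 0.00945, and 0.0898 with the block). Icam1 and Vcam1 were the called members among 16 tested genes of NF-kB, the inflammatory transcription factor, its feedback inhibitors and its adhesion targets, with 0 higher and 2 lower. The median log2 fold change of the list was -0.58, against 0.04 for all genes. Rela, the main activating subunit, read 262, 215 and 326 CPM and then 217, 132 and 159 CPM, with overlapping groups (log2 fold change -0.68, adjusted p = 0.293).

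Both adhesion genes had lower means in fresh cells and their highest mean at 3 h. Icam1 had a mean of 87.5 ± 53.5 CPM at 0 h (SD, n = 2), 2156 ± 597 CPM at 3 h (n = 3) and 3 ± 5.2 CPM at 18 h (n = 3). Its later values were uneven, with 106 and 47.1 CPM in isolations 1 and 2 at 24 h and 0, 0 and 103 CPM in isolations 1, 2 and 3 at 96 h. Vcam1 had 265 ± 74.7, 2174 ± 315 and 183 ± 44.3 CPM at 0, 3 and 18 h. Icam1 and Vcam1 kept their call in all 6 fits that left out a sample.

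**Figure D2:**
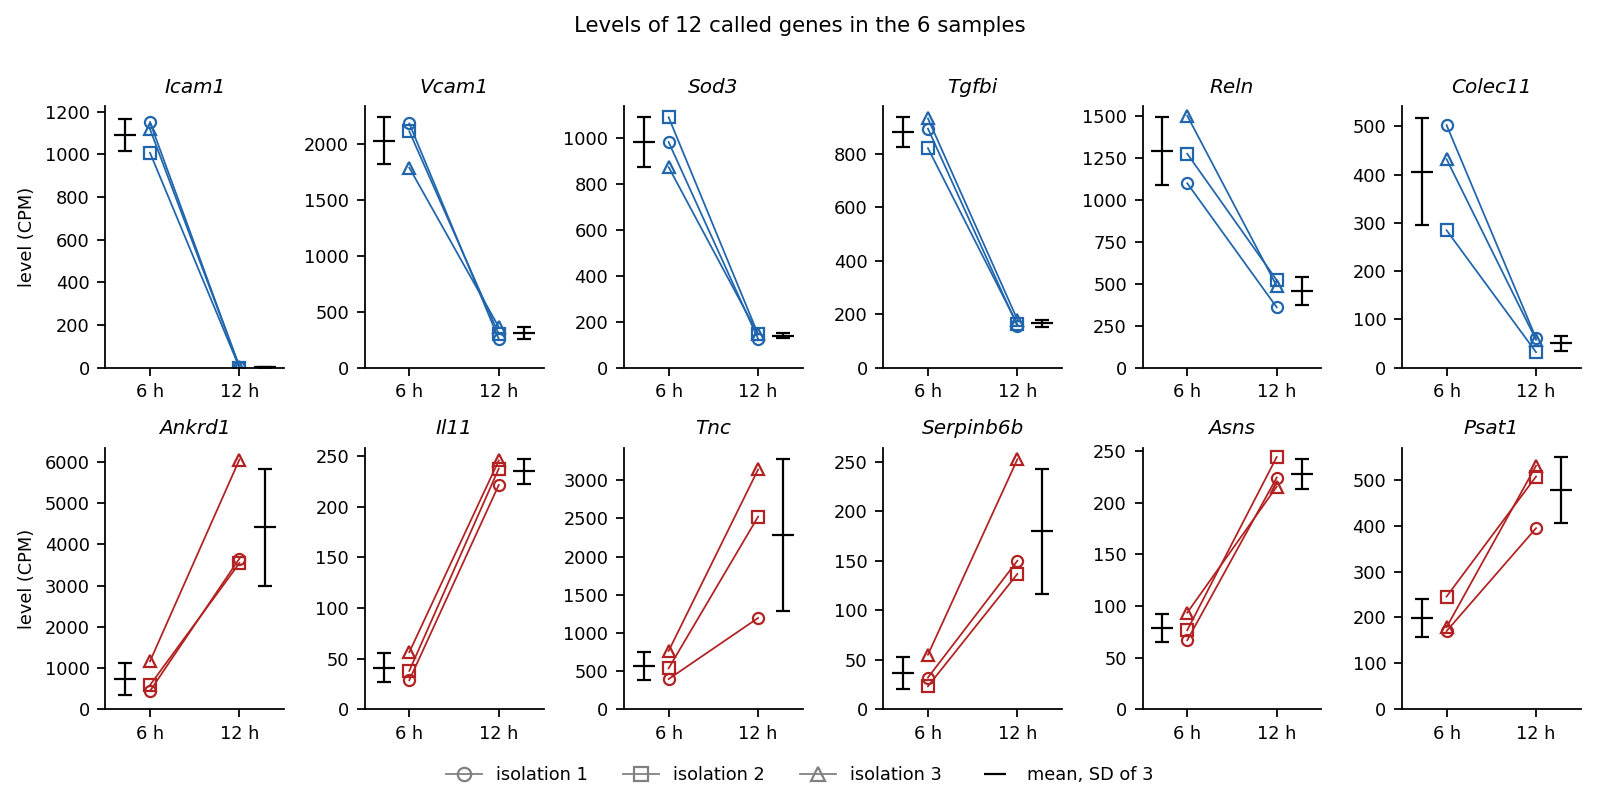
Levels in CPM (linear axes from 0) of 6 genes that fell (blue) and 6 that rose (red) at 6 h and 12 h. Each symbol is 1 sample, a line joins the 2 samples of 1 isolation, and the black marks are the mean with the SD of 3 samples; in none of the 12 do the groups overlap, and Tnc and Ankrd1 show the widest spread at 12 h.

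Beside Vcam1, the smallest p-values belonged to 3 genes of secreted proteins outside the adhesion list. Sod3, the extracellular superoxide dismutase (chr5:52363791-52371418), read 980.2, 1088 and 872 CPM at 6 h and 125, 145 and 144 CPM at 12 h (log2 fold change -2.86, SE 0.18, adjusted p = 0.00497). Tgfbi, a matrix protein that binds integrins and collagen (chr13:56609523-56639562), read 895, 822 and 933 and then 156, 162 and 179 CPM (log2 fold change -2.44, SE 0.15, adjusted p = 0.00497). For both, the samples within a group differed little beside the gap between the groups, and both were called with the block (adjusted p = 0.0877 each). Adamts4, a protease that cleaves the proteoglycan aggrecan, read 224, 291 and 329.8 and then 19.8, 17.3 and 10.1 CPM (log2 fold change -4.20, SE 0.33, adjusted p = 0.0098). Adamts4 had been at 24.4 ± 7.25 CPM in fresh cells (n = 2) and 548 ± 61.7 CPM at 3 h (n = 3), again with its highest mean at 3 h. Sod3 too had its highest mean at 3 h, 2597 ± 215 CPM, but from a level of 1739 ± 84 CPM in fresh cells. All 3 kept their call whichever sample was left out.

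The stellate cell markers were the list with the most genes that fell. Of 15 stellate cell markers tested (of 16 listed), 0 were higher and 9 lower (1.4% of all genes), and the median log2 fold change was -1.78. The 9 were Colec10 and Colec11, which encode secreted lectins, the proteoglycan Dcn, Ecm1, the hepatocyte growth factor Hgf, the neurotrophin receptor Ngfr, the neural adhesion molecule Ntm, reelin (Reln) and the pericyte regulator Rgs5. The groups did not overlap for 12 of the 15, all of them lower at 12 h, against 11.4% of all genes.

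Reln (chr5:21884454-22344702) read 1098, 1274 and 1501 CPM at 6 h and 359, 521 and 487 CPM at 12 h (log2 fold change -1.53, SE 0.21, adjusted p = 0.0298). Ntm read 467, 424 and 501 and then 122, 128 and 95.3 CPM (log2 fold change -2.04, SE 0.18, adjusted p = 0.0141). Ngfr read 131, 248 and 80.6 and then 17.5, 16.4 and 7.93 CPM (log2 fold change -3.51, SE 0.55, adjusted p = 0.0412). Ngfr varied widely between the samples of each group, whereas Ntm was even within them. By 18 h Ngfr was at 0 in all 3 samples. Colec11 and Dcn followed the same direction, Colec11 from 502, 284 and 432 to 60.9, 32 and 57.5 CPM (log2 fold change -3.04, SE 0.33, adjusted p = 0.0168) and Dcn, a proteoglycan that binds collagen, from 12311, 10758 and 11411 to 3083, 3696 and 3950.5 CPM (log2 fold change -1.71, SE 0.17, adjusted p = 0.0152). With the block Colec11, Ngfr, Ntm and Reln kept their call, and the other 5 had adjusted p-values of 0.102 to 0.105. Colec11, Dcn, Ntm and Rgs5 kept it whichever sample was left out, and the other 5 had adjusted p-values of up to 0.162.

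Of the 15, 6 did not pass the test. Pdgfrb, the PDGF receptor of pericytes, read 199, 216 and 430.2 and then 173, 181 and 129.9 CPM without passing the test (log2 fold change -0.83, adjusted p = 0.329). The log2 fold change of 2 of the 15 was above 0, and neither was called. The sums of Kupffer cell, hepatocyte and endothelial markers given above had ranges that overlapped between the timepoints, while those of the stellate sum did not. Within isolations 1, 2 and 3 the endothelial sum went from 1064 to 796, 431 to 177 and 276 to 187 CPM. Their part in the fall of the stellate markers was not tested.

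Several genes outside the lists were called with the block too. Ednrb, the endothelin B receptor, fell by 2.55 on the log2 scale (SE 0.28, adjusted p = 0.0168), from 564, 623 and 661 to 80.2, 152 and 90.5 CPM. Abcc9, the regulatory subunit of a potassium channel of pericytes, went from 631, 699 and 579 to 108, 171 and 132 CPM (log2 fold change -2.25, SE 0.23, adjusted p = 0.0152). Plvap, which encodes the diaphragm protein of fenestrated and caveolar vessels, went from 835, 642 and 1010.4 to 193, 222 and 193 CPM (log2 fold change -2.05, SE 0.20, adjusted p = 0.0152). Plvap is best known from endothelium, and 0 of the 12 sinusoidal endothelial markers were called by edgeR or DESeq2, or had an unadjusted p below 0.05 (median log2 fold change -0.79, 2 of 12 above 0). The part of endothelial RNA in its fall was not tested. Cadm1, a cell adhesion molecule, Fgfr2, a fibroblast growth factor receptor, and the phosphatase Ptprk fell by 1.87 to 3.55 on the log2 scale. Tshz2, a zinc finger factor, Tmem176b, a membrane protein, Arhgap42, a brake on the GTPase RhoA, and Scarb2, a lysosomal membrane protein, had log2 fold changes of -3.19, -2.43, -1.85 and -1.77. All 7 were called with the block, with adjusted p-values of up to 0.0999.

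Several matrix genes fell. Of 18 tested interstitial collagens and fibrillar matrix genes, 0 were called higher and 6 lower (1.4% of all genes), and the median log2 fold change was -1.65. In 12 of the 18 all 12 h samples were below all 6 h samples (11.4% of all genes), while 3 had a log2 fold change above 0, 1 of them at an unadjusted p below 0.05. The 6 were the collagens Col3a1, Col5a3, Col6a3 and Col14a1 and the small leucine-rich proteoglycans Dcn and Lum, which space collagen fibrils. Col3a1 read 687, 493 and 1039.7 CPM and then 158, 172 and 203 CPM (log2 fold change -2.07, SE 0.28, adjusted p = 0.0284). Col14a1 read 1115, 1412 and 1403 and then 325, 443 and 512 CPM (log2 fold change -1.65, SE 0.23, adjusted p = 0.0298). Both were called with the block, and the other 4 had adjusted p-values of 0.102 to 0.353. Col1a1, the chain of the main collagen of scars, read 139, 123 and 155 and then 52.5, 87.4 and 83.3 CPM. Its groups did not overlap, but it missed the threshold (log2 fold change -0.92, SE 0.26, adjusted p = 0.178). Col6a3, a chain of a beaded collagen, and Dcn kept their call whichever sample was left out, while Col3a1, Col14a1, Lum and Col5a3 reached adjusted p-values of 0.138 to 0.267.

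The 11 basement membrane genes tested had -0.99 as their median log2 fold change, with 0 called by edgeR, 2 by DESeq2 and 4 at an unadjusted p below 0.05. Lama1, a laminin chain outside that list, fell from 29, 54.7 and 71.3 CPM to 0 in all 3 samples, which makes it at least 97-fold lower against a floor of 3 counts per library. Among 20 tested genes of collagen modification, Serpinh1, the collagen chaperone of the endoplasmic reticulum, rose (1099, 788 and 1141 to 1832, 2454 and 2366 CPM, log2 fold change 1.11, SE 0.20, adjusted p = 0.064) while Pcolce, the enhancer of procollagen cleavage, fell (68.7, 111 and 143 to 19.6, 18.6 and 17 CPM, log2 fold change -2.58, SE 0.35, adjusted p = 0.0284). Serpinh1 thus moved against the called collagens. Neither was called with the block (adjusted p = 0.218 and 0.138). The lysyl oxidases Lox, with 5.92, 14.9 and 2.85 and then 9.33, 9.99 and 33.4 CPM, and Loxl2, with 683, 643 and 448 and then 462, 603 and 463 CPM, overlapped between the groups and were not called (adjusted p = 0.773 and 0.764).

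Inhibitors of matrix proteases moved both ways. Timp3, the inhibitor that binds to the matrix, rose from 1585, 1908 and 1975 to 3284, 5710.4 and 5889 CPM (log2 fold change 1.42, SE 0.27, adjusted p = 0.0723). Timp2, its soluble relative, fell from 458, 474 and 558 to 162, 132 and 162 CPM (log2 fold change -1.73, SE 0.18, adjusted p = 0.0152). The 8 tested MMPs and TIMPs had 1 call in each direction, and with the block that of Timp2 stayed (adjusted p = 0.0898) and that of Timp3 did not (0.132). In the list of 13 matricellular and provisional matrix genes the calls were again 1 and 1. Sparcl1, an anti-adhesive protein, fell from 538, 699 and 598 to 108, 118 and 143 CPM (log2 fold change -2.35, SE 0.21, adjusted p = 0.0141). Tnc, tenascin-C, a glycoprotein of wounds and stiff tissue (chr4:63959785-64047015), rose from 395, 536 and 763 to 1195, 2522 and 3139.8 CPM (log2 fold change 1.99, SE 0.41, adjusted p = 0.0921). Both were called with the block. Ccn2, the connective tissue growth factor, read 8365, 6356 and 8052 and then 12302, 16068 and 20084 CPM with no overlap, and its adjusted p of 0.105 was just over the threshold. Without isolation 3 at 12 h the adjusted p-values of Timp3 and Tnc were 0.244 and 0.264, while Timp2 and Sparcl1 kept their call in all 6 fits.

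Of the interferon-response genes few passed the test, but their signs were uniform. All 29 tested members of the interferon and MHC class I list had a log2 fold change below 0, with a median of -1.27, and 20 of the 29 had all 12 h samples below all 6 h samples (11.4% of all genes). DESeq2 called 11 of them. The test called 0 higher and 4 lower: the guanylate-binding proteins Gbp2 and Gbp3, the antiviral GTPase Mx2 and the immunoproteasome subunit Psmb9. Gbp2 read 239, 159 and 123 CPM at 6 h and 33.6, 26.3 and 31.5 CPM at 12 h (log2 fold change -2.54, SE 0.31, adjusted p = 0.0223). Mx2 was at 23.4, 16.8 and 17.1 CPM at 6 h and Psmb9 at 10.7, 11.4 and 27.8 CPM, and at 12 h both were at 0 in all 3 samples, at least 35.8-fold and 31.2-fold lower. With the block none of the 4 was called (adjusted p = 0.102 to 0.348). The interferon-induced chemokines went the same way. Cxcl9, a T cell attractant, went from 106, 34.6 and 27.5 CPM to 0 in all 3 samples, at least 105-fold lower, and Cxcl10, a second ligand of the same receptor, from 121, 102 and 239.9 to 38, 23.4 and 34.2 CPM (log2 fold change -2.29, SE 0.39, adjusted p = 0.0557, and 0.125 with the block). Cxcl10 had 492 ± 101 CPM in fresh cells (n = 2), and Gbp2 had 67.1 ± 21.9 CPM in fresh cells and 196 ± 53 CPM at 3 h (n = 3). Each of these 6 genes lost its call in at least 1 of the fits that left out a sample, with adjusted p-values of up to 0.252.

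Promoter sequence is shown for 3 of the genes that fell, because they share an interferon-stimulated response element, searched as GAAA, any 2 bases and GAAA again on both strands in the 250 bases before the RefSeq gene start (GRCm38.p6, the patch release of mm10). The stretches below are written 5′ to 3′ on the strand of the gene with every match in capitals. Cxcl10 lies at chr5:92349063-92349132 on the minus strand, Gbp2b at chr3:142594680-142594749 and Gbp3 at chr3:142559979-142560034 on the plus strand. The end of the Gbp3 stretch lies inside the GENCODE span of that gene, whose start is upstream of the RefSeq start. In Gbp2b and Gbp3 the match is on the opposite strand and so reads as TTTC, 2 bases and TTTC, and in Gbp3 a pair of matches overlaps.
Cxcl10: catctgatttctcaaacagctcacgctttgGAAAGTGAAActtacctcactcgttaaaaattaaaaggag
Gbp2b: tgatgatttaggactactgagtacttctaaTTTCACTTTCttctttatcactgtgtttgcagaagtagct
Gbp3: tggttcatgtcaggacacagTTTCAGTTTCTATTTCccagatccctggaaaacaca
This element was held by 2.98% of the 32851 promoters in the RefSeq table and by 3.46% of its 27025 genes. The table had a promoter for 46 of the 56 higher genes, of which 0 held it, and for 98 of the 144 lower genes, of which 10 did: Arhgap6, Calhm6, Colec11, Cxcl10, Gbp2, Gbp2b, Gbp3, Gna13, Irf2 and Tgfbi. A match describes the letters in this window and is not evidence of binding. Gbp2b, which belongs to the same family as Gbp2 and Gbp3 and whose reads may be shared with them, fell from 134, 147 and 162 to 33.6, 23.7 and 15.5 CPM (log2 fold change -2.64, SE 0.33, adjusted p = 0.0232, and 0.125 with the block). Without isolation 2 at 12 h its adjusted p was 0.112.

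Part of the immediate early response fell. Of 19 tested immediate early genes, 0 were higher and 3 lower (1.4% of all genes), and the median log2 fold change was -0.26. The direction was mixed, with 4 of the 19 above 0 and a largest log2 fold change of 2.57. At an unadjusted p below 0.05 by edgeR 3 were higher and 4 lower (5.91% and 7.3% of all genes). The groups did not overlap for 2 on the higher side and 5 on the lower (12.9% and 11.4% of all genes). Egr1, a zinc finger factor induced by serum, fell from 1330.3, 1687 and 2483 to 345, 557 and 620.3 CPM (log2 fold change -1.88, SE 0.32, adjusted p = 0.0542) and was called with the block. Zfp36, which encodes a protein that destabilizes inflammatory mRNAs, fell from 188, 203 and 296 to 94, 87.4 and 65.1 CPM (log2 fold change -1.51, SE 0.25, adjusted p = 0.0532), with an adjusted p of 0.22 under the block. The orphan receptor Nr4a3 went from 48.9, 20.8 and 41.9 CPM to 0 in all samples, at least 69.8-fold lower. Of 13 tested subunits of AP-1, the dimeric factor built from Jun and Fos proteins, Fosb alone was called. It fell from 197, 108 and 151 to 21.5, 18.1 and 8.58 CPM (log2 fold change -3.27, SE 0.42, adjusted p = 0.0245, and 0.102 with the block). Fos read 43.5, 53.8 and 84 and then 24.5, 18.6 and 34.2 CPM and Junb 1688, 1635 and 1391 and then 1239, 826 and 976 CPM, with no overlap in either, and did not pass (adjusted p = 0.267 and 0.206). Klf6, an early factor of HSC activation, overlapped between the groups (1952, 1428 and 2394 against 1127, 1815 and 1935 CPM, log2 fold change -0.26, adjusted p = 0.799). None of the 4 called genes held through all 6 fits that left out a sample (adjusted p of up to 0.208).

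Against this background Ankrd1 rose steeply. Ankrd1 encodes a stretch-responsive ankyrin repeat protein and is a textbook target of YAP and its partner TEAD (chr19:36111961-36120099). It read 442, 585 and 1162 CPM at 6 h and 3654, 3544 and 6055 CPM at 12 h, with isolation 3 highest at both timepoints (log2 fold change 2.58, SE 0.42, adjusted p = 0.0475, and 0.0898 with the block). Its mean was 20.5 ± 3.48 CPM at 3 h and 3836 ± 488 CPM at 18 h (n = 3 each). Of 21 YAP/TEAD targets tested, 1 was higher and 1 lower (0.546% and 1.4% of all genes), and the median log2 fold change was -0.26. The lower one was Asap1, a regulator of Arf GTPases (319, 359.7 and 457 to 169, 162 and 203 CPM, log2 fold change -1.11, SE 0.20, adjusted p = 0.069, and 0.142 with the block). Without isolation 3 at 12 h the adjusted p of Ankrd1 was 0.164, and without isolation 2 at 12 h that of Asap1 was 0.25.

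The promoter of Ankrd1 is shown because it holds the TEAD letters GGAATG in a pair of places, at 210 and 123 bases before the RefSeq start, both on the strand of the gene (capitals, chr19:36119932-36120084, minus strand, RefSeq, GRCm38.p6).
Ankrd1: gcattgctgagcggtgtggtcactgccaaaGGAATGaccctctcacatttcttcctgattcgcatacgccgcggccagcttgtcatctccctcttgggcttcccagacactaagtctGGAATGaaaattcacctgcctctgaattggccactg
The GENCODE span of Ankrd1 given above begins upstream of the RefSeq start, so this stretch lies inside it. At least 1 copy of GGAATG on either strand was present in 12.6% of all promoters and 14.4% of all genes of the table, in 7 of the 46 higher genes with a promoter and in 18 of the 98 lower ones.

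Few contractile and actin genes passed. Of 32 tested, 2 were higher, 0 lower, and the median log2 fold change was 0.25. Actn1, an actin cross-linker of focal adhesions, rose from 1398, 1371 and 1478 to 2400.1, 3172 and 3208 CPM (log2 fold change 1.02, SE 0.17, adjusted p = 0.0557), and the filamin Flna from 782, 1123 and 961 to 1947, 2271 and 2058 CPM (log2 fold change 1.10, SE 0.20, adjusted p = 0.0642). With the block their adjusted p-values were 0.179 and 0.142. Acta2, the smooth muscle actin by which myofibroblasts are recognized, overlapped between the groups, with 78.5, 97.1 and 123 CPM at 6 h and 83.3, 78.1 and 116 CPM at 12 h (log2 fold change -0.13, adjusted p = 0.918). Of 11 integrin subunits, Itga1, the alpha chain of a collagen receptor, fell from 525, 547 and 656 to 129, 209 and 243 CPM (log2 fold change -1.60, SE 0.27, adjusted p = 0.0531, and 0.103 with the block). Tagln2, a small actin-binding protein, passed the p threshold and not the fold (log2 fold change 0.89, adjusted p = 0.0542). Actn1, Flna and Itga1 reached adjusted p-values of up to 0.223 when a 12 h sample was left out.

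Il11, a cytokine of the IL-6 family with a known role in fibroblast activation (chr7:4772373-4782859), rose from 28.7, 37.9 and 56.3 CPM to 221, 238 and 246 CPM. The 12 h samples were nearly equal and each lay far above any 6 h sample (log2 fold change 2.49, SE 0.29, adjusted p = 0.0209, and 0.0898 with the block). The peak was short, with means of 126 ± 38.6 CPM at 18 h (n = 3), 58.3 ± 16.4 CPM at 24 h (n = 2) and 19.9 ± 6.79 CPM at 96 h (n = 3). Il11 and Cxcl10 were the called members of 18 tested chemokines and cytokines, 1 in each direction, of which Cxcl10 was not called with the block. Among 15 genes of gp130 signalling, the receptor route of the IL-6 family, the kinase Jak1 fell from 908, 832 and 831 to 398, 348 and 477 CPM (log2 fold change -1.10, SE 0.18, adjusted p = 0.0461) and the LIF receptor Lifr from 137, 120.4 and 137 to 41.5, 32 and 22.2 CPM (log2 fold change -2.07, SE 0.29, adjusted p = 0.0298), and 0 rose. Neither kept its call with the block (adjusted p = 0.167 and 0.125). Il11 was called whichever sample was left out, and Jak1 and Lifr were not called without isolation 2 at 12 h (adjusted p = 0.19 and 0.138).

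Genes of the plasminogen system were among those that rose. Serpinb2, the intracellular inhibitor of plasminogen activators, rose from 29, 19.5 and 17.6 to 136, 206 and 279 CPM (log2 fold change 3.21, SE 0.36, adjusted p = 0.0198). Plaur, the urokinase receptor, rose from 77.6, 80.7 and 50.8 to 146, 194 and 233 CPM (log2 fold change 1.42, SE 0.29, adjusted p = 0.0942). These were the called 2 of 9 tested genes of the plasminogen and coagulation list, with 0 lower, and their adjusted p-values with the block were 0.124 and 0.265. Serpinb6b, a serpin of the same clade outside the list, rose from 32, 23.2 and 55.1 to 150.0, 137 and 252 CPM (log2 fold change 2.27, SE 0.41, adjusted p = 0.064) and was called with the block. Serpinb2 kept its call in all 6 fits that left out a sample, Plaur had an adjusted p of 0.291 without isolation 3 at 12 h and Serpinb6b one of 0.224 without isolation 1 at 6 h.

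Of the pathway lists, that of ATF4, the factor that restores amino acid supply under stress, held the most genes that rose. Of 23 tested ATF4 targets, 7 were higher (0.546% for all genes) and 0 lower. In 11 of the 23 all 12 h samples were above all 6 h samples (12.9% of all genes). The median log2 fold change was 0.48, with 16 of 23 above 0. Phgdh, Psat1 and Psph are the 3 successive enzymes of serine synthesis from a glycolytic intermediate, and Shmt2 passes the carbon of serine to mitochondrial folate. Phgdh read 20.1, 15.5 and 16.9 CPM and then 109, 79.3 and 118 CPM (log2 fold change 2.52, SE 0.30, adjusted p = 0.0223). Psat1 read 170.3, 246 and 179 and then 394, 507 and 530.5 CPM (log2 fold change 1.23, SE 0.23, adjusted p = 0.076), and Psph 63.7, 35.9 and 39.6 and then 124, 147 and 234 CPM (log2 fold change 1.85, SE 0.35, adjusted p = 0.0747). For all 3 enzymes every 12 h sample was above every 6 h sample, and the log2 fold change was largest for the first. Shmt2 was evenly raised, from 130.0, 175 and 179 to 346, 357 and 357 CPM (log2 fold change 1.10, SE 0.19, adjusted p = 0.0632).

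Beyond serine, Asns, which makes asparagine, rose from 66.9, 76.6 and 93.6 to 225, 244 and 216 CPM (log2 fold change 1.5, SE 0.20, adjusted p = 0.0284). Bcat1, the cytosolic aminotransferase of branched-chain amino acids, rose from 7.4, 8.84 and 23.2 to 116, 112 and 134 CPM (log2 fold change 3.17, SE 0.48, adjusted p = 0.0404). Gdf15, a hormone secreted by stressed cells, rose from 165, 159 and 117 to 520.4, 473 and 567 CPM (log2 fold change 1.80, SE 0.21, adjusted p = 0.0209) and was called in all 6 fits that left out a sample. With the block none of the 7 was called, with adjusted p-values of 0.105 to 0.24. The other 6 lost it in at least 1 such fit (adjusted p of up to 0.249). In fresh cells all 7 had means below 20 CPM. Phgdh was at 0 in both samples, and Asns and Psat1 had means of 1.93 ± 2.73 and 3.58 ± 3.8 CPM (n = 2). By 96 h Asns was back to 27.9 ± 8.49 CPM and Phgdh to 9.83 ± 8.51 CPM (n = 3).

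The 30 bases of the Asns promoter that carry an ATF4 element, searched as TGATGNAA on both strands, are shown with the match in capitals (chr6:7693214-7693243, minus strand, RefSeq, GRCm38.p6). The match begins 23 bases before the RefSeq start, which is downstream of the GENCODE start, so the stretch lies inside the GENCODE span (chr6:7675169-7693254).
Asns: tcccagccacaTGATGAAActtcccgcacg
This element was present in 3.45% of all promoters, in 3.91% of all genes of the table and in 3 of the 46 higher genes with a promoter (Asns, Chchd10 and Got1) and 5 of the 98 lower ones. Asns was the only match among the 7 ATF4 targets that rose, all of which had a promoter in the table.

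Genes of protein synthesis were above 0 in sign with hardly any passing the test. All 38 Myc and ribosome biogenesis genes were tested, 36 had a log2 fold change above 0, 19 had non-overlapping groups on the higher side and 0 were called by edgeR (2 by DESeq2, 13 at an unadjusted p below 0.05), with a median of 0.60. For the 79 cytosolic ribosomal protein genes the median was 0.46, with 77 above 0, 55 non-overlapping on the higher side (12.9% of all genes) and 0 called (2 by DESeq2, 37 at an unadjusted p below 0.05). Rplp0, a stalk protein of the large subunit, read 396, 454 and 393 and then 845, 661 and 773 CPM (log2 fold change 0.84, adjusted p = 0.0952), which passed the p threshold and not the fold, as did Rpl18 (0.90, adjusted p = 0.0987). Odc1, the polyamine enzyme and Myc target, and Nop56, a nucleolar protein, stood at 0.93 (adjusted p = 0.0918) and 0.82 (adjusted p = 0.121) on the log2 scale. The 20 cytosolic tRNA synthetases had a median of 0.46, with 16 above 0 and 0 called (1 by DESeq2, 6 at an unadjusted p below 0.05), and Wars, for tryptophan, had the largest at 1.36 (adjusted p = 0.109). Other library scalings moved the median of all genes by at most 0.03 on the log2 scale. All of them were computed from the same counts and cannot show a change in total RNA per cell, which was not tested.

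No respiratory chain gene was called by edgeR. All 13 mitochondrially encoded genes had a log2 fold change below 0 (median -0.52, 8 of 13 non-overlapping on the lower side against 11.4% of all genes, 0 called by edgeR, 1 by DESeq2, 8 at an unadjusted p below 0.05 against 7.3% of all genes), while of 68 tested nuclear-encoded subunits 54 were above 0 (median 0.45, 0 called by edgeR, 2 by DESeq2). Complete separation on the higher side held for 12 of the 68, against 12.9% of all genes, and an unadjusted p below 0.05 for 6, against 5.91%, both near the background. The share of all counts from the mitochondrial genome was 5.03 to 6.22% at 6 h and 3.67 to 4.33% at 12 h. mt-Co3, a subunit of cytochrome oxidase, read 2466, 2876 and 2679 and then 1912, 1829.6 and 1991 CPM (adjusted p = 0.211). Each mitochondrial gene shares its promoters and its template with the others, so the 13 are not independent measurements.

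**Figure D3:**
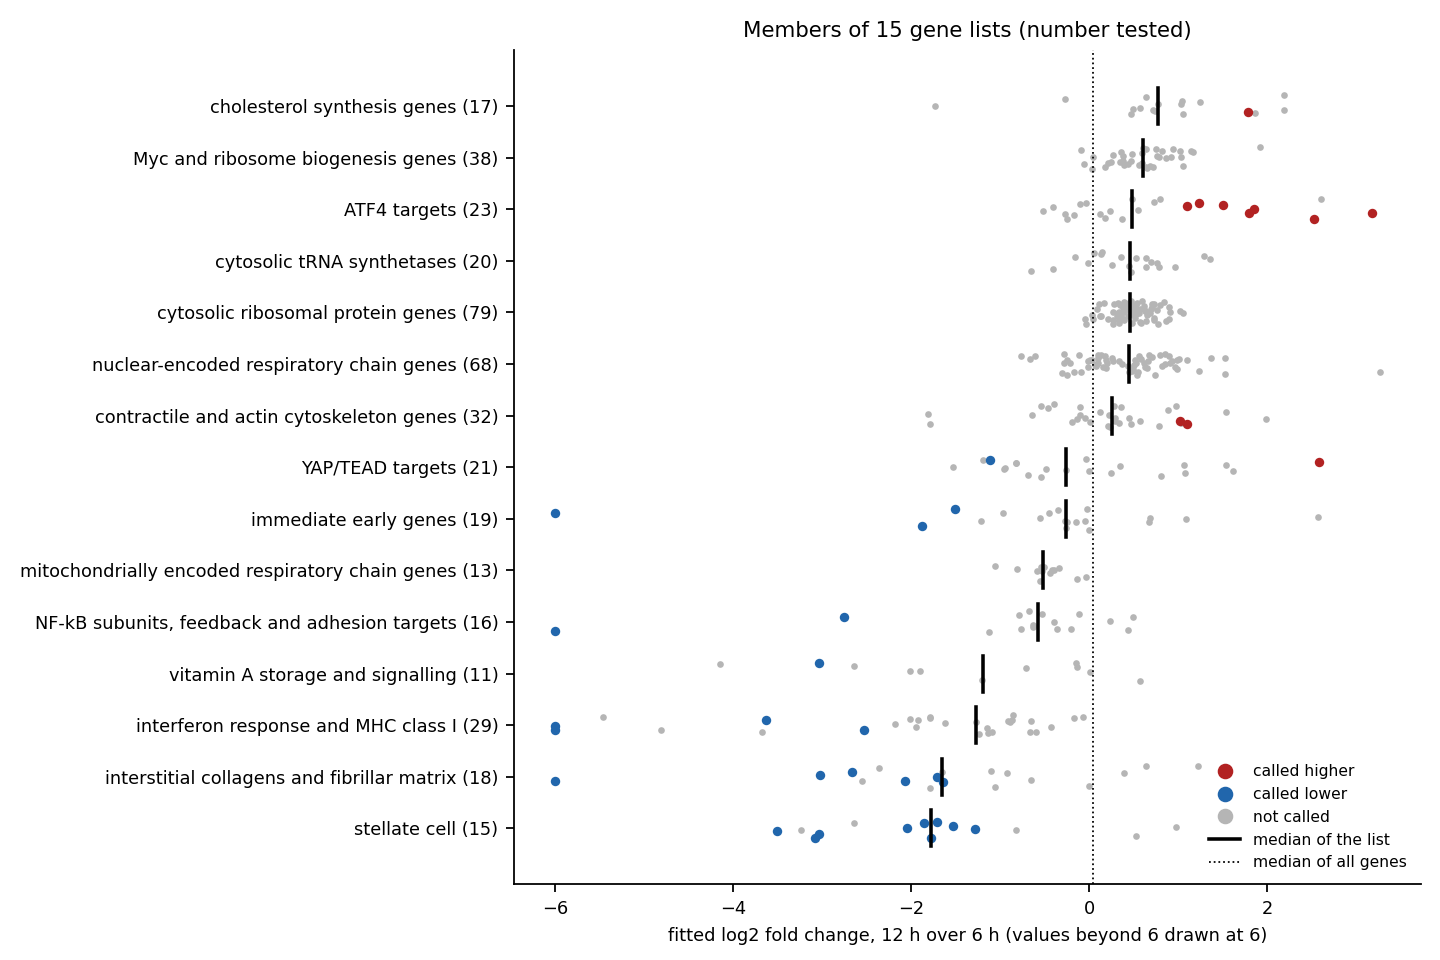
Fitted log2 fold change of 12 h over 6 h for each tested member of 15 gene lists, with the number tested in parentheses, red for genes called higher, blue for genes called lower and grey for the rest; values beyond 6 are drawn at 6. The black bar is the median of the list and the dotted line the median of all genes (0.04), and the stellate marker and interstitial matrix lists lie farthest to the left (-1.78 and -1.65).

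In 11 vitamin A genes tested the median log2 fold change was -1.20, with 2 above 0. Rdh10, which oxidizes retinol, read 156, 96.9 and 74.7 and then 16.1, 33.2 and 39.4 CPM with no overlap and did not pass (log2 fold change -1.90, adjusted p = 0.124). Lipid droplet and lipolysis genes had 0 calls among 9 tested by edgeR, DESeq2 or an unadjusted p below 0.05 (median -0.41), and Plin2, the droplet coat protein, overlapped between the groups.

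Growth factor pathways gave few calls. Pdgfa, the ligand of PDGF receptor alpha, rose from 216, 156 and 188 to 449.7, 370.2 and 437 CPM (log2 fold change 1.14, SE 0.18, adjusted p = 0.0422), while neither receptor gene passed. Of 16 genes of BMP signalling, Id3, a direct target that inhibits basic helix-loop-helix factors, fell from 632, 527 and 577 to 229.5, 232 and 129 CPM (log2 fold change -1.58, SE 0.25, adjusted p = 0.0412). Neither was called with the block (adjusted p = 0.125 for both). Leaving out isolation 3 at 12 h gave Pdgfa an adjusted p of 0.193, and leaving out isolation 1 at 6 h gave Id3 one of 0.169. Among 21 TGF-beta ligands, receptors and regulators 0 were called by edgeR and 4 by DESeq2, with 7 at an unadjusted p below 0.05. Ltbp4, which stores latent TGF-beta in the matrix, read 770.0, 706 and 719.7 and then 377, 324 and 417 CPM and missed the fold limit narrowly (log2 fold change -1.0, adjusted p = 0.0488). Tgfb3 read 50.3, 75.3 and 83.8 and then 102, 284 and 368 CPM (log2 fold change 1.82, adjusted p = 0.154).

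The remaining pathway lists had 0 calls by edgeR's quasi-likelihood test. In 31 proteasome subunits the median log2 fold change was 0.33, with 6 at an unadjusted p below 0.05 and 3 called by DESeq2. In 21 NRF2 genes of the oxidative stress response it was 0.34, with 5 and 2. In 25 chaperones of the endoplasmic reticulum with Xbp1 it was 0.12, with 5 and 0. In 21 heat shock chaperones it was -0.25, with 4 and 1, and in 17 glycolysis genes 0.09, with 4 and 2. The G1 and p53 list of 22 genes had -0.02, with 4 and 2, the 17 EGF ligands and ERK feedback genes -0.02, with 5 and 0, and the 7 Notch genes -0.12, with 2 and 0. For 14 clock genes the median was -0.52, with 2 and 1, and for 22 lysosome genes -0.31, with 4 and 3. Only 8 of 29 DNA replication and mitosis genes were expressed enough to be tested, with 2 at an unadjusted p below 0.05 and 1 called by DESeq2. Of the marker lists of other cells, 2 Kupffer and myeloid and 9 hepatocyte genes could be tested, with 0 called by edgeR or DESeq2 and 0 at an unadjusted p below 0.05. Hspd1, the mitochondrial chaperonin, had the smallest p of the heat shock list (295, 345 and 343 to 612, 524 and 665 CPM, log2 fold change 0.84, adjusted p = 0.0956) and missed the fold limit. Cdkn1a, the p53-induced inhibitor of the cell cycle, overlapped between the groups (log2 fold change 0.35, adjusted p = 0.771).

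The study defined a fibrogenic aHSC program from fibrotic livers and an initiatory aHSC program in part from these 6 h and 12 h cultures, so the latter is not independent evidence of a direction here. Of 69 tested initiatory genes 9 were higher and 0 lower (median log2 fold change 0.74): Actn1, Akap12, Ankrd1, Asns, Bcat1, Il11, Plaur, Psat1 and Tnc. Of 114 tested fibrogenic genes 9 were higher and 1 lower (0.546% and 1.4% of all genes, median 0.47). Of these 9, 7 were also in the initiatory list, and the other two were the orphan receptor Gpr176 and the phosphatase inhibitor Ppp1r14b. The lower one was Adamts4. Akap12, a scaffold for protein kinase A outside the fibrogenic list, rose from 1189.6, 2199.6 and 1522 to 4984, 5374 and 4778 CPM (log2 fold change 1.58, SE 0.27, adjusted p = 0.0532, and 0.132 with the block). With the block 3 genes of each list were called higher, Ankrd1, Il11 and Tnc, and of the 11 higher genes of both lists only Il11 was called in all 6 fits that left out a sample (adjusted p of up to 0.291 for the rest). Vcan, a proteoglycan of the fibrogenic program, was at 0 in 1 of the 3 samples at 6 h and overlapped between the groups (0, 6.81 and 34 against 15.6, 11.9 and 26.4 CPM, adjusted p = 0.967).

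Some calls rested on genes that were undetected throughout 1 group, 15 at 12 h and 7 at 6 h. The largest of the lower ones, beside Cxcl9, Lama1 and Nr4a3, were Gpihbp1, the lipase anchor of capillaries, at least 81-fold lower, the hemicentin Hmcn1 (74.4-fold) and the BMP-like factor Gdf10 (66.5-fold). Gpr176, undetected at 6 h, was at least 39.7-fold higher. None of the 22 genes was called with the block, and none in all 6 fits that left out a sample. The medians of the lists were the same with these genes set to their bounds.

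For 4 of the 200 called genes a gene on the same strand with an overlapping GENCODE M21 span differed the other way by at least 0.5 of the difference in mean CPM, so that the calls cannot be read as changes of the locus. How the counting assigned shared reads was not given in the sources used here. Partners that moved the same way were not counted, so other calls may rest on shared reads too. Gvin1 and Gm4070, both called lower, had nearly equal levels. Gvin1 read 302.4, 297 and 320.7 and then 111.5, 89.8 and 134.6 CPM, and Gm4070 302.4, 296.5 and 329.6 and then 111.5, 89.8 and 135.6 CPM. Whether these are separate changes was not tested. Mrpl53, a mitochondrial ribosomal protein gene, was undetected at 6 h and had a mean of 57.8 CPM at 12 h, while the gene model Gm42688, which contains it, went from 35.4 CPM to 0. Their sum was 32.3, 48.2 and 25.7 CPM at 6 h and 40.8, 58.3 and 74.2 CPM at 12 h, with overlapping groups. The order of the pair varied at other timepoints too, with Mrpl53 at 2.35 ± 4.07 CPM and Gm42688 at 75.2 ± 27.4 CPM at 18 h (n = 3). Scamp4 and its partner Gm49322 together had 107, 111 and 128 CPM at 6 h and 135, 115 and 87.5 CPM at 12 h. The cap methyltransferase gene Cmtr1 and its partner Gm28043 together had 42.3, 55.6 and 39.6 CPM and then 43.2, 43.2 and 37.2 CPM. In both pairs the sums overlapped between the groups, unlike the called genes alone.

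The direction of the calls was looked up in 6 libraries of the same isolations that the comparison did not use, 18 h against 3 h. Of the 56 higher genes 53 were tested there, 40 were called higher and 0 lower, where 8.1% of all genes were called higher. Of the 144 lower genes 142 were tested, 119 were called lower and 0 higher, where 13.3% of all genes were called lower. The median log2 fold change of the higher genes was 1.55 at 12 h against 6 h and 1.84 at 18 h against 3 h, and that of the lower genes was -2.01 and -3.38. The wider interval contains the narrower one but also 3 h to 6 h and 12 h to 18 h, and none of its libraries was taken at 6 h or 12 h. The median level of the lower genes already went from 363 CPM at 3 h to 206 CPM at 6 h. A shared direction there is therefore no repeat of the step from 6 h to 12 h. Il11 had a log2 fold change of 2.21 at 18 h against 3 h and Sod3 one of -7.01. Atxn1, a nuclear protein called with the block at -2.09, had -0.71 (adjusted p = 0.153) and was not called there.

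**Figure D4:**
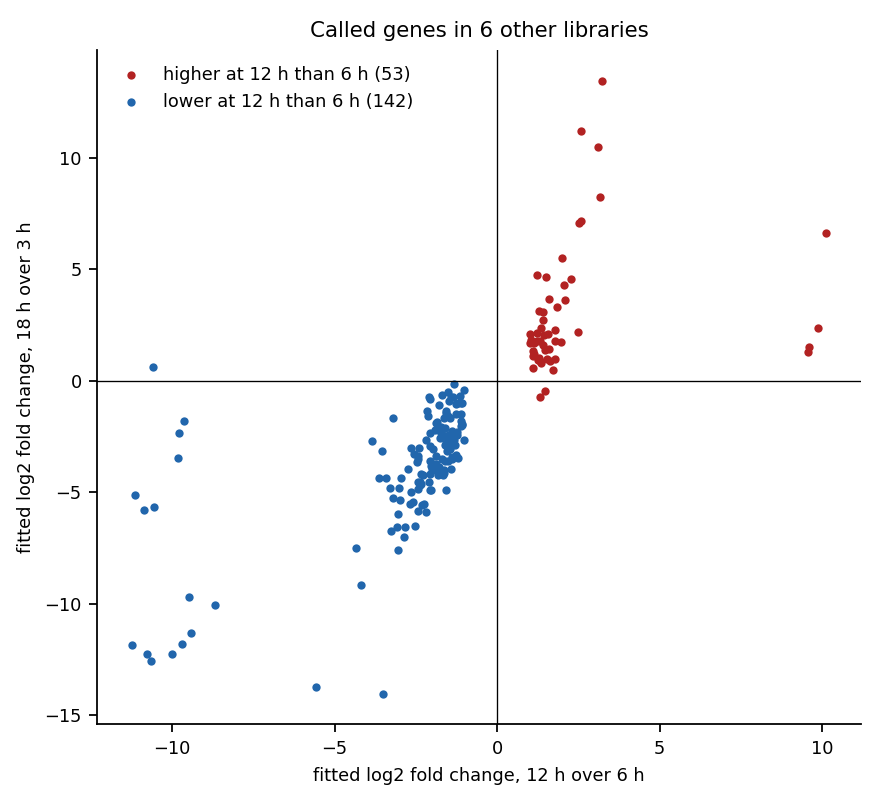
Fitted log2 fold changes of the called genes at 12 h over 6 h (horizontal) and at 18 h over 3 h (vertical), from libraries with no sample in common, for the 53 higher genes (red) and 142 lower genes (blue) tested in both. The red points lie almost all in the upper right and the blue in the lower left, and points beyond about 8 on either axis are mostly genes at 0 in 1 group, whose fitted values are no measure of size.

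Over all 7 timepoints the higher and the lower genes differed in course. Of the 56 higher genes, 31 had their highest mean at 12 h and 12 at 18 h, while 6 peaked at 24 h, another 6 at 96 h and 1 in fresh cells. Their median level over genes started at 28.5 CPM in fresh cells and stood at 60.9 CPM at 6 h and 191 CPM at 12 h, after which it went to 179 CPM by 18 h and 71.2 CPM by 96 h. Of the 144 lower genes, 47 had their highest mean in fresh cells, 67 at 3 h and 23 at 6 h. Their median went from 341 CPM in fresh cells and 363 CPM at 3 h to 206 CPM at 6 h and then 52.4 CPM, and stayed between 53 and 62.3 from 18 h to 96 h. At 6 h 87 of the 144 were already below their mean in fresh cells, and at 12 h 131 were. The step between 6 h and 12 h is the one that chose these genes. Of the 56 higher genes 47 had a lower mean at 96 h than at 12 h.

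**Figure D5:**
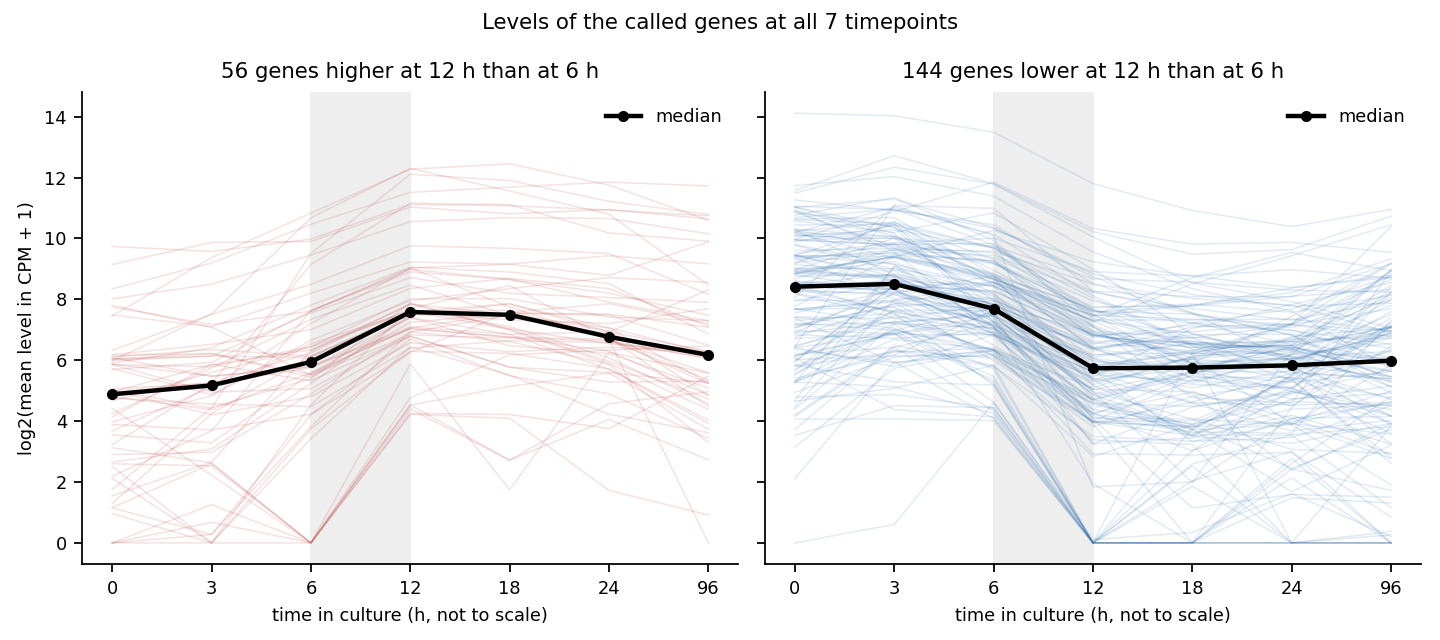
Mean level of each called gene at the 7 timepoints, as log2(CPM + 1) on the vertical axis, for the 56 higher (left, red) and 144 lower genes (right, blue), with the median in black; n = 2 at 0 h and 24 h and 3 elsewhere, the time axis is not to scale, and the grey band is the interval from 6 h to 12 h that chose the genes. The medians rise to 12 h and decline on the left, and drop between 6 h and 12 h and stay low on the right.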

How the data were processed

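Counts per gene were deposited by the authors as 1 table for all 19 samples, made from 3′ tag reads (QuantSeq 3′ mRNA-Seq FWD). The submitters' processing notes name STAR, StringTie and mm10, and the counting tool, annotation version and strand setting are not given in the sources used here, so overlapping and antisense genes cannot be told apart. The unit was checked in the table, which holds whole numbers for 55487 genes with library totals that differ. Among the 6 libraries at 6 h and 12 h, no 2 of the same timepoint agreed within sampling noise. Other pairs were not compared.

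From these counts, CPM was computed per library. edgeR 4.0.16 in R 4.3.3 (limma 3.58.1) was run on the 3 samples at 12 h and the 3 at 6 h with filterByExpr, TMM scaling, glmQLFit and glmQLFTest (two-sided), and p-values were adjusted by Benjamini-Hochberg over the 10253 genes tested. Calls required an adjusted p below 0.1 together with a fold above 2. SE is that of the fitted log2 fold change. Groups came from the sample titles, and the number in the labels served as the block. It is called the isolation here, although numbers 1 and 3 share an isolation date and the labels do not say what it counts. The deviations of same-numbered samples from their group means correlated at 0.056, -0.001 and 0.062, against -0.113 to 0.08 for other pairs. Where nothing shows that isolations were separate animals, p-values measure the spread between these samples only. The 18 h and 3 h libraries were fitted in the same way. Alternatives were DESeq2 1.42.0, other scalings and filters, the block, the isolation date, a fit of all samples, thinning to 3376702 counts, other thresholds and leaving out each sample. The fits were tested on simulated data first.

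Genes were named by rule: the 12 called genes of each direction with the largest change, no overlap and at least 20 CPM in the higher group, called list members with up to 3 per list by p, genes the study names for its cultures, and genes called with the block. A few of them are left to the totals or not reported here. The members and the 46 lists were chosen with earlier results of these data known. Promoters (RefSeq, GRCm38.p6) were matched by symbol for 144 of the 200 called genes and scanned with Python 3.11.15. Intervals and floors cover counting error only.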

Additional observations from a re-analysis of the deposited data

How the results depend on the processing

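The direction of all 200 calls was the same under every alternative in which they were fitted, while their number was not stable. Every alternative took the change from these same libraries, in which the groups did not overlap for any of the 200. The shared direction was therefore largely fixed in advance and is no further support. DESeq2 called 799 genes, 317 higher and 482 lower, so that 60.3% were lower, and 199 of the 200 were among them. An adjusted p below 0.05 left 93 (14 and 79), and the isolation date as a covariate 88 (15 and 73). A minimum mean of 20 CPM, an alternative chosen after seeing the data, gave 294 calls with 95 higher. Under the block by the number in the labels, 30 were called, 4 higher and 26 lower. Leaving out 1 sample gave 38 to 143 calls, 3 to 40 higher and 33 to 114 lower, and was least favourable without isolations 2 or 3 at 12 h (38 and 44 calls) or isolation 1 at 6 h (45). Each fit that left out a sample had fewer samples, and the block had fewer residual degrees of freedom. The cause of the differences in number was not tested. DESeq2 size factors (193), library size alone (187), no filter (188), thinning (211), all 19 samples in the fit (278) and a fold limit of 1.5 or none (218 each) moved the total by less than 1.5 times. The 159 calls shared with 18 h against 3 h ranged from 145 to 165. Of 180 named genes the block changed 57 calls and DESeq2 25, the latter all gained. Pairs of libraries correlated at 0.699 to 0.777 within 6 h and at 0.738 to 0.771 within 12 h. Pairs across the timepoints spanned 0.656 to 0.784, so the within-group values lay inside the range between groups. The biological coefficient of variation, the fitted relative spread between samples of a group, was 0.881, and 0.52 above 20 CPM. This spread, the 3 samples per group and 7.2% dropouts among genes above 20 CPM limit which changes could be seen.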

Other observations

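Beyond the lists, the called genes held further members of the interferon response, chosen here after their values were seen. Iigp1, an interferon-induced GTPase that attacks parasite vacuoles, fell from 232, 154 and 119 CPM to 16.8, 6.95 and 1.95 CPM (log2 fold change -4.36, SE 0.75, adjusted p = 0.0586, edgeR). Ifnar2, a chain of the type I interferon receptor, fell from 823, 696 and 774 to 402, 392 and 292 CPM (log2 fold change -1.11, SE 0.17, adjusted p = 0.0413), and Irf2, a repressor of the same genes, from 200.2, 135 and 193 to 76.3, 70.8 and 54.2 CPM (log2 fold change -1.42, SE 0.24, adjusted p = 0.0532). None of the 3 was called with the isolation block (adjusted p = 0.102, 0.146 and 0.179). The complement genes C1ra, C2 and Serping1 were called lower as well. C1ra, a protease of the classical pathway, went from 408, 398 and 429 to 154, 129 and 186 CPM (log2 fold change -1.42, SE 0.19, adjusted p = 0.0284), C2 from 83.5, 91.5 and 65.2 to 21.9, 28.3 and 19.9 CPM (log2 fold change -1.81, SE 0.32, adjusted p = 0.064), and Serping1, the C1 inhibitor, from 845, 834 and 779 to 197, 316 and 275 CPM (log2 fold change -1.67, SE 0.21, adjusted p = 0.0245). Their adjusted p-values with the block were 0.118, 0.192 and 0.102. All 6 genes lost their call in at least 1 of the fits that left out a sample (adjusted p of up to 0.223).

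Cygb, Apoe and Calcrl, in none of the lists and likewise chosen after their values were seen, were called lower. Cygb, a globin of stellate cells, went from 209, 352 and 185 to 37.1, 22.5 and 19.4 CPM (log2 fold change -3.29, SE 0.40, adjusted p = 0.0223). Apoe, the lipoprotein component, went from 1397, 1514 and 1288 to 402, 291 and 401 CPM (log2 fold change -1.97, SE 0.20, adjusted p = 0.0152), and Calcrl, the receptor subunit for adrenomedullin, from 295, 432 and 316 to 107, 134 and 118 CPM (log2 fold change -1.58, SE 0.23, adjusted p = 0.0349). On the rising side Slc1a5, a glutamine transporter, went from 82.3, 60.2 and 97.7 to 191, 208 and 209.9 CPM (log2 fold change 1.32, SE 0.22, adjusted p = 0.0532), Eif5a, a translation factor, from 831, 722 and 548 to 1529, 1320.0 and 1656 CPM (log2 fold change 1.07, SE 0.21, adjusted p = 0.0813) and the chaperonin subunit Cct7 from 344, 239.6 and 297 to 638, 584 and 574 CPM (log2 fold change 1.01, SE 0.17, adjusted p = 0.0532). The groups did not overlap for any of these 6 genes, and none was called with the block (adjusted p = 0.102 to 0.241). Apoe kept its call whichever sample was left out, and the others reached adjusted p-values of up to 0.264.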
